A study of Nicotiana tabacum with 6 samples.

Results

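Plants make the building blocks of isoprenoids by 2 separate routes, and 5 genes of these routes were followed here in tobacco leaves lacking one photosystem gene or the other. The plastid route, the methylerythritol phosphate pathway, supplies carotenoids, the phytyl tail of chlorophyll, plastoquinone, tocopherols and gibberellins, and its products are in high demand in green leaves. The cytosolic route, the mevalonate pathway, supplies sterols, many sesquiterpenes and the prenyl anchors of proteins. DXS, DXR and HDS belong to the plastid route, and HMGR and FPPS1 to the cytosolic side. They were chosen with earlier results of these data known, by gene symbol in the annotation of the tomato array. The annotation ties exactly 1 probe set to each symbol. The set is thus 5 of 10101 tested probe sets and 5 of 803 annotated tomato genes.

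RNA came from leaves of Nicotiana tabacum, cultivar Petit Havanna in the labels' spelling, on 6 Affymetrix tomato GeneChip arrays. There were 2 arrays of wild type, called normal plants in the labels, 2 of a deletion mutant of psaA and 2 of a deletion mutant of psbA. The plastid genes psaA and psbA encode a reaction-centre protein of photosystem I and the D1 protein of photosystem II. All groups carry the same growth text: culture bottles with spectinomycin at 500 mg/L, dim light for 16 h and dark for 8 h, and leaves taken 2 to 3 weeks after subculture. Whether wild type was really kept on the drug is unclear, and if it was not, drug and genotype cannot be told apart in any comparison with wild type. The labels and design text call the 2 arrays of a group independent biological replicates without saying whether they stand for separate plants, cultures or lines, so p-values measure the spread between these arrays only.

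The deposited log2 values are centred: each probe set has a median of 0 over the 6 arrays. A value of 0.50 therefore means a signal above that probe set's own median, and neither the brightness of a gene nor a ranking of one gene against another can be read from it. For the same reason, the presence of leaf marker transcripts could not be checked as a level, only as a difference between genotypes. In bulk leaf RNA, fewer cells of a type and less RNA per cell cannot be told apart. Differences come from 1 limma fit to all arrays with Benjamini-Hochberg adjustment over the 10101 probe sets, and "rose" and "fell" are used only for an adjusted p under 0.05. Control RNAs with a poly-A tail that are added to the samples read higher in the mutants (means of -0.29 and -0.15 on the wild-type arrays, -0.013 and 0.022 on the psaA arrays and 0.25 and 0.16 on the psbA arrays). Scaling the arrays on these controls, called poly-A scaling here, therefore lowers every difference from wild type. Of 10101 probe sets, 1424 were called lower in the psaA mutant and 5571 in the psbA mutant with it, against 612 and 582 as deposited. A gene that passes as lower in the psbA mutant only with poly-A scaling thus shares this with much of the array. The calls that change with it are named or counted beside the results. The probes were designed on tomato, so a symbol names the tomato gene, and related tobacco copies may share a signal. The tobacco RefSeq gene table (assembly ASM71507v2) lists 3 genes under the name DXS, 1 under DXR, 2 under HMGR names, 1 under FPPS names and 0 under HDS names.

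HDS fell in both mutants, and DXR fell in the psaA mutant, while DXS, the entry gene of the plastid route, did not pass in either (-0.12 and -0.15). HMGR and FPPS1 rose in the psaA mutant, whereas in the psbA mutant FPPS1 fell and HMGR gave -0.25, which did not pass the test. Between the mutants, HMGR and FPPS1 differed by 2.04- and 2.09-fold.

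**Figure D1:**
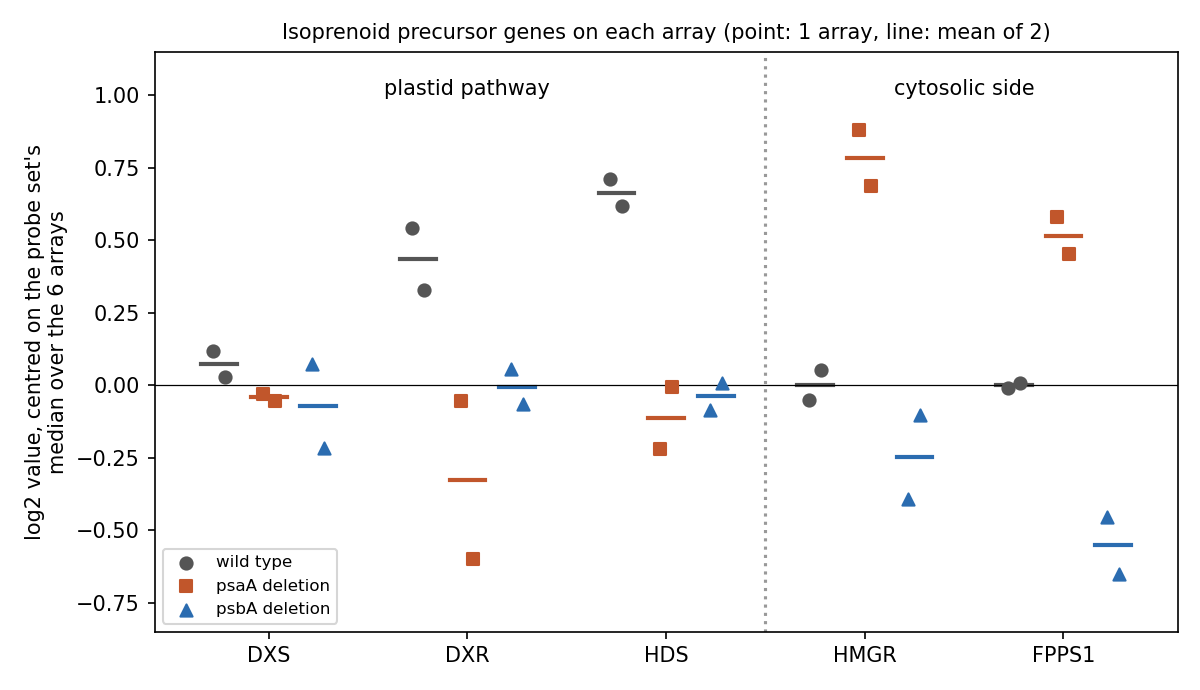
Centred log2 values (vertical axis) of the 5 genes on each array, with wild type as circles, the psaA mutant as squares and the psbA mutant as triangles; lines are means of 2 arrays. For HDS both wild-type arrays lie above all mutant arrays, and for FPPS1 the psaA arrays lie above and the psbA arrays below wild type.

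DXS makes deoxyxylulose phosphate, the entry compound of the plastid pathway, and is known as a main point of control of its flux. The probe set (tomato gene ID 544220) read 0.12 and 0.030 on the wild-type arrays, -0.030 and -0.054 on the psaA arrays and 0.072 and -0.22 on the psbA arrays. The psaA arrays lay just below wild type, and the psbA arrays, the widest pair for this gene, overlapped it. The differences from wild type were -0.12 (SE 0.125, n = 2 per group) in the psaA mutant and -0.15 (SE 0.125) in the psbA mutant, with limma adjusted p of 0.644 and 0.536. The 95% intervals ran from -0.40 to 0.17 and from -0.43 to 0.14, so a fall of more than 0.43 on the log2 scale lies outside both. With scaling on the added poly-A control RNAs, DXS in the psbA mutant gave -0.57 and passed (limma adjusted p = 0.00798). The median over all probe sets was then -0.40 in that comparison.

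DXR converts the product of DXS to methylerythritol phosphate, after which the pathway is named. The DXR probe set (543682) read 0.54 and 0.33 in wild type, -0.055 and -0.60 in the psaA mutant and 0.055 and -0.066 in the psbA mutant. Both wild-type arrays were above all 4 mutant arrays, but the psaA arrays stood 0.54 apart, the widest replicate gap among the 5 genes. In the psaA mutant DXR fell by 0.76 (SE 0.177, n = 2 per group, 1.70-fold, limma adjusted p = 0.0289). In the psbA mutant the difference was -0.44 (SE 0.177, limma adjusted p = 0.165), with a 95% interval from -0.85 to -0.037.

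The DXR call in the psaA mutant depended on single arrays. Without psaA replicate 2 the difference was -0.49 (limma adjusted p = 0.139), without wild-type replicate 1 it was -0.66 (0.166), and without wild-type replicate 2 it was -0.87 (0.0781). With only the psaA and wild-type arrays in the fit, the adjusted p was 0.0519, as it was when either psbA array was left out. Without psaA replicate 1 the difference was -1.03 and passed. In the psbA mutant, DXR passed with poly-A scaling (-0.86, limma adjusted p = 0.0039).

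HDS makes hydroxymethylbutenyl diphosphate near the end of the plastid pathway, with an iron-sulphur cluster that takes electrons from ferredoxin. The HDS probe set (543704) read 0.71 and 0.62 in wild type, -0.22 and -0.0072 in the psaA mutant and -0.084 and 0.0072 in the psbA mutant. The wild-type arrays stood well clear of the 4 mutant arrays, which overlapped each other. HDS fell by 0.78 in the psaA mutant (SE 0.117, n = 2 per group, 1.71-fold, limma adjusted p = 0.00405). It fell by 0.70 in the psbA mutant (SE 0.117, 1.63-fold, adjusted p = 0.0069). The direct difference between the mutants was 0.075 (SE 0.117, adjusted p = 0.794), with a 95% interval from -0.19 to 0.34, and its sign turned with poly-A scaling (-0.13).

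HDS passed in the psaA mutant with each of the 6 arrays left out in turn, the highest limma adjusted p being 0.0422. In the psbA mutant it passed in 5 of these 6 fits and missed without wild-type replicate 1 (-0.66, adjusted p = 0.0547), and with poly-A scaling it was -1.12. ISPE, the kinase of the middle of the pathway and the remaining plastid-route gene with a symbol on the array, gave -0.20 in the psaA mutant (adjusted p = 0.411) and -0.34 in the psbA mutant (adjusted p = 0.15). With poly-A scaling ISPE passed in the psbA mutant.

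On the cytosolic side, HMGR reduces hydroxymethylglutaryl-CoA to mevalonate, the committed and most regulated step of that route. Solanaceous plants have several HMGR genes with different responses, and the symbol does not say which of them the probe set (543702) reads. It read -0.052 and 0.052 in wild type, 0.88 and 0.69 in the psaA mutant and -0.39 and -0.10 in the psbA mutant. The psaA arrays were the highest, the wild-type arrays came next and the psbA arrays were the lowest, with no overlap between the 3 groups. Such separation of 2 arrays from 2 is not a call. It was also seen for the root markers PT2 and FER, which did not pass in any comparison as deposited. Its share over all probe sets was not counted. HMGR rose in the psaA mutant by 0.78 (SE 0.134, n = 2 per group, 1.72-fold, limma adjusted p = 0.00735). In the psbA mutant it gave -0.25 (SE 0.134, adjusted p = 0.305), with a 95% interval from -0.55 to 0.060.

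FPPS1, farnesyl diphosphate synthase, joins the small precursors to farnesyl diphosphate, from which sterols, sesquiterpenes and farnesyl anchors are made. The FPPS1 probe set (543552) read -0.0086 and 0.0086 in wild type, 0.58 and 0.45 in the psaA mutant and -0.45 and -0.65 in the psbA mutant. The mutants thus lay on opposite sides of a very tight wild-type pair. FPPS1 rose by 0.52 in the psaA mutant (SE 0.116, n = 2 per group, 1.43-fold, limma adjusted p = 0.0252). It fell by 0.55 in the psbA mutant (SE 0.116, 1.47-fold, adjusted p = 0.0185).

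Against wild type these calls depended on the scaling and on single arrays. With poly-A scaling the rise of FPPS1 in the psaA mutant was 0.29 and did not pass (limma adjusted p = 0.159), while HMGR in the psbA mutant became -0.67 and passed (0.00564). The FPPS1 fall in the psbA mutant was larger with it (-0.97). The FPPS1 rise missed the threshold without either psaA array or either wild-type array, with adjusted p from 0.0783 to 0.148. Its fall in the psbA mutant missed without psbA replicate 2 (-0.45, 0.0918), wild-type replicate 1 (-0.56, 0.0886) or wild-type replicate 2 (-0.54, 0.0982). The rise of HMGR missed without psaA replicate 1 (0.69, 0.0693) or wild-type replicate 1 (0.73, 0.0611).

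Of the 5 genes, 2 rose and 2 fell in the psaA mutant, against 10.7% of all probe sets called in that comparison (4.66% higher and 6.06% lower). In the psbA mutant 0 rose and 2 fell, against 11.2% of all probe sets called (5.41% higher and 5.76% lower). The 5 genes were chosen with earlier results of these data known, so these counts are no test of the set. Both comparisons use the same wild-type arrays, so the falls of HDS in the mutants are not independent of each other. By the size of the difference in the psaA mutant, HMGR ranked 372, HDS 383, DXR 401, FPPS1 914 and DXS 6127 of 10101. In the psbA mutant HDS ranked 458, FPPS1 792, DXR 1268, HMGR 3228 and DXS 5390.

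**Figure D2:**
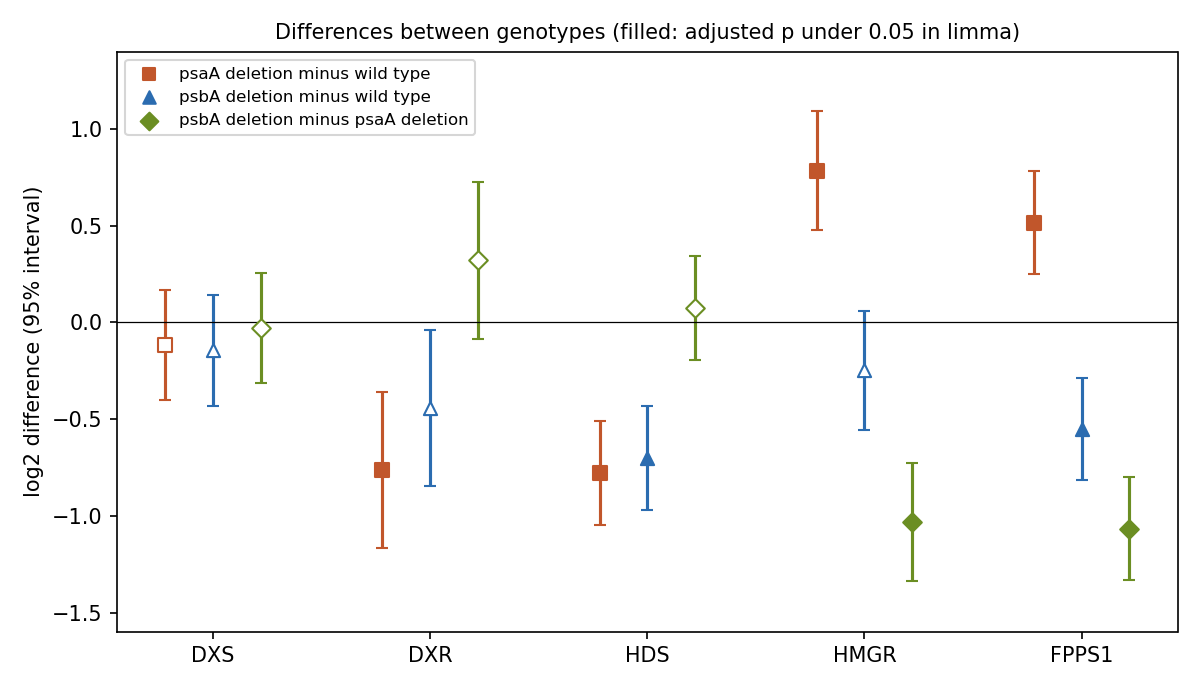
Log2 differences (vertical axis) with 95% intervals from limma for each gene in the 3 comparisons; filled symbols have an adjusted p under 0.05. HMGR and FPPS1 are the filled symbols of the comparison between the mutants, at -1.03 and -1.07.

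The direct comparison of the mutants tests whether the deletions changed these genes differently. With the psbA deletion HMGR was 2.04-fold lower than with the psaA deletion (-1.03, SE 0.134, n = 2 per group, limma adjusted p = 0.00428). FPPS1 was 2.09-fold lower (-1.07, SE 0.116, adjusted p = 0.00194). These were 2 of the 5 genes, both lower, against 3.98% of all probe sets called in this comparison (1.78% higher and 2.2% lower). HMGR ranked 87 and FPPS1 74 of 10101 by size, and DXR ranked 1582, HDS 7188 and DXS 8918. The genes were chosen with earlier results of these data known, so the count is no test of the set. DXR gave 0.32 (SE 0.177, adjusted p = 0.398, 95% interval from -0.084 to 0.73), and DXS gave -0.030 (SE 0.125, adjusted p = 0.931).

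The FPPS1 difference passed with each array left out, with limma adjusted p up to 0.0326. HMGR missed in 1 of these 6 fits, without psaA replicate 1 (-0.93, adjusted p = 0.0592). On these arrays the 3' over 5' signal of the actin, gapdh and ef1a control probe sets, a measure of RNA integrity, moved along with HMGR and FPPS1. It was higher than wild type by 0.27 to 0.31 in the psaA mutant and lower than in the psaA mutant by 0.36 to 0.40 in the psbA mutant. The ubiquitin control was likewise higher than wild type in the psaA mutant, but also in the psbA mutant, while GlutTrans and PhyB2 were lower in the psaA mutant. Against wild type, ubiquitin, GlutTrans and PhyB2 gave 0.30, -0.12 and -0.13 in the psaA mutant and 0.32, 0.021 and -0.031 in the psbA mutant. Between the mutants these controls differed by 0.019 to 0.15, higher in the psbA mutant. The part of RNA integrity in the 2 differences was not tested.

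A within-array difference does not depend on how arrays are scaled, and shows unequal change between genes, not which of them changed. The plastid value was taken as the mean of HDS and DXR, without DXS. The HMGR value minus this mean was -0.68 and -0.42 on the wild-type arrays, 1.02 and 0.99 on the psaA arrays and -0.38 and -0.073 on the psbA arrays. The psaA mean was 1.55 above wild type and the psbA mean 0.33 above it, beside standard deviations of 0.181 (wild type), 0.0192 (psaA mutant) and 0.215 (psbA mutant). With DXS in the plastid mean as well, an alternative added after the values were seen, the psaA mean was 1.34 and the psbA mean 0.18 above wild type. With FPPS1 in place of HMGR, a choice added after its values were seen, the psaA mean was 1.29 above wild type and the psbA mean 0.021 above it. No test was made, since the genes were chosen with these results known.

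**Figure D3:**
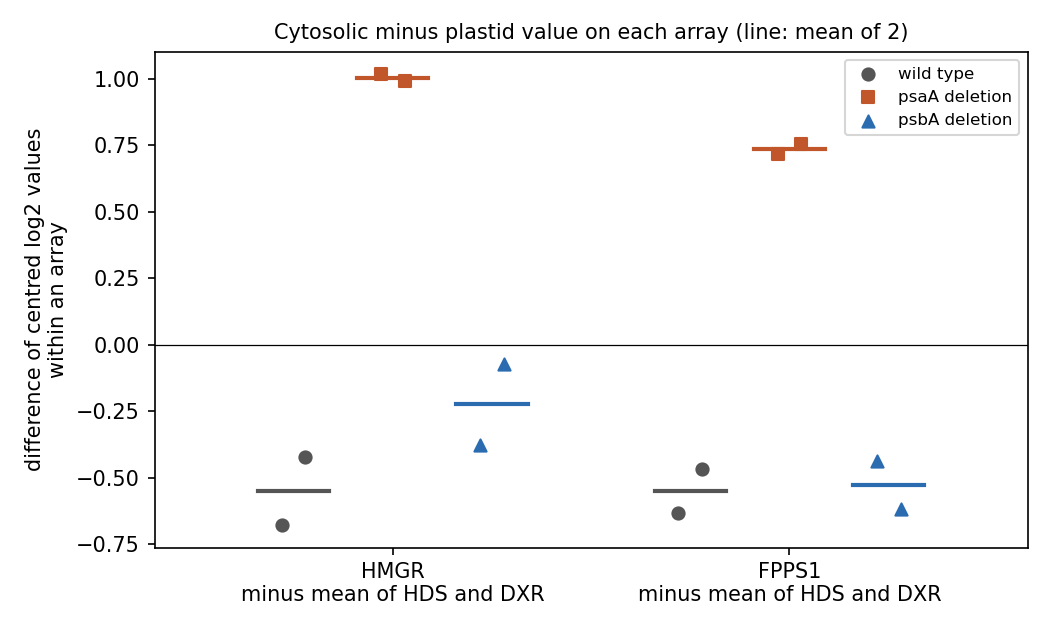
Difference of centred log2 values within an array (vertical axis) between a cytosolic gene and the mean of HDS and DXR; symbols are arrays and lines are means of 2. The psaA arrays lie near 1.0 for HMGR and between 0.72 and 0.75 for FPPS1, above every other array.

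Across the 6 arrays HMGR and FPPS1 had a Pearson r of 0.90 with each other, and HDS and DXR one of 0.74. DXS had an r of 0.56 with DXR and 0.50 with HDS. HDS had an r of -0.37 with HMGR and -0.090 with FPPS1. These correlations describe 6 arrays that fall into 3 genotypes, so much of each reflects group means.

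Among 701 other probe sets with a gene symbol, the profile most like HDS was that of CRTL-E-1, the lycopene epsilon-cyclase of lutein synthesis (r = 0.998 over 6 arrays). The probe sets named as most like HDS, FPPS1, HMGR and DXR were picked by their r with that gene over the same arrays. The direction of their differences therefore largely follows from this choice, and their calls are not independent results. CRTL-E-1 fell in both mutants (-0.56 and -0.48, limma adjusted p of 0.0128 and 0.0239), and each call ended when any 1 array of the 2 groups compared was left out. The next were DES (r = 0.987; -0.38 and -0.30, limma adjusted p of 0.0507 and 0.103, passing in both mutants with poly-A scaling and in the psaA mutant with array-median scaling) and GSA-AT, an aminotransferase of early chlorophyll synthesis (r = 0.982). GSA-AT fell by 0.82 in the psaA mutant and by 0.69 in the psbA mutant (adjusted p of 0.00169 and 0.00448).

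FPPS1 was most like Rab1A, a small GTPase of vesicle traffic (r = 0.997), loxD, a lipoxygenase of jasmonate synthesis (r = 0.993), and 1 of the probe sets of MPK3, a mitogen-activated protein kinase (r = 0.989). Rab1A gave 0.47 and -0.62, loxD 0.72 and -0.78 and this MPK3 probe set 0.89 and -0.99 in the psaA and psbA mutants, all passing in limma. These genes were picked for their likeness to FPPS1 on the same arrays, so sharing its directions is no separate result. Leaving out either wild-type array ended both Rab1A and both MPK3 calls against wild type, and leaving out either psaA array ended their rises. Leaving out psbA replicate 2 ended the Rab1A fall, and leaving out psaA replicate 2 ended the loxD rise (adjusted p = 0.0543). With poly-A scaling the rise of Rab1A did not pass either. Their differences between the mutants, -1.09, -1.50 and -1.88, passed with each array left out.

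HMGR was most like rem-2 (r = 0.99), whose own differences were small (0.10 and -0.057, not passing, though with poly-A scaling it passed in the psbA mutant at -0.48). It was followed by AOC, the allene oxide cyclase of jasmonate synthesis (r = 0.982), and LEA14 (r = 0.965). AOC rose by 0.69 in the psaA mutant (limma adjusted p = 0.0049) and gave -0.39 in the psbA mutant (0.0542, passing with poly-A or array-median scaling). LEA14 rose by 0.50 in the psaA mutant (0.0247), a call that ended with poly-A scaling or with either psaA or either wild-type array left out. LEA14 gave -0.32 in the psbA mutant (0.111) and -0.74 with poly-A scaling, which passed.

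The profile most like DXR was that of the mitotic kinase gene CDKB2 (r = 0.982; -0.92, adjusted p = 0.0153, in the psaA mutant and -0.38, 0.249, in the psbA mutant). The CDKB2 call ended without psaA replicate 2 or either wild-type array, and with poly-A scaling CDKB2 passed in the psbA mutant as well (-0.80). XTH16 (r = 0.978) and FRK3 (r = 0.958) came next, and as deposited they did not pass in either mutant, though both did with poly-A scaling.

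Downstream of the plastid pathway, 15 probe sets of 12 carotenoid genes were measured. The list was drawn up with earlier results of these data known, so its counts are no test against the share of all probe sets. In the psaA mutant 10 fell and 0 rose, beside 6.06% of all probe sets lower, with a median of -0.62 beside 0.017 over all probe sets. The log2 difference was -1.68 for 1 of 2 probe sets of VDE, the violaxanthin de-epoxidase, -1.13 for ZDS, the zeta-carotene desaturase, and -1.01 for CrtR-b1, a carotene hydroxylase. The other falls included CCD1B (-0.85) and CCD1A (-0.42), which cleave carotenoids, and ZEP (-0.80), the zeaxanthin epoxidase. HDS at -0.78 and DXR at -0.76 lay among them, beside PSY2, a phytoene synthase, at -0.87 and PDS, the phytoene desaturase, at -0.68. The other VDE probe set gave -0.42 (adjusted p = 0.124). Of 3 Psy1 probe sets 1 fell (-0.62), and the others gave 0.28 and 0.050 without passing. With 1 array left out, between 6 and 10 of the 15 fell, the fewest without psaA replicate 2. The Psy1 and CCD1A calls ended without either psaA array or without wild-type replicate 1, CCD1A also without wild-type replicate 2 or with hybridisation-control scaling, and the PDS call without psaA replicate 2.

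In the psbA mutant 5 of the 15 fell, namely VDE (-1.12), ZDS (-0.72), PSY2 (-0.58), CRTL-E-1 (-0.48) and PDS (-0.41), and 0 rose, beside 5.76% of all probe sets lower, with a median of -0.27 beside 0.018 over all probe sets. This count was 2 without either wild-type array, 3 without either psbA array and 14 with poly-A scaling. The PDS call ended with any single array left out or with hybridisation-control scaling, and the PSY2 call without either wild-type array. Between the mutants 4 of the 15 passed, all higher in the psbA mutant, beside 1.78% of all probe sets higher. This count fell to 0 without psaA replicate 1 or without either psbA array, to 1 without psaA replicate 2 and with poly-A scaling, and to 2 without either wild-type array or with only the mutants in the fit. The 5 leaf marker genes CAB4, CAB5, CAB6A, PETE and GS2 were also lower: 5 fell in the psaA mutant (median -0.96) and 4 in the psbA mutant (median -0.68), beside the same 6.06% and 5.76% of all probe sets lower. With poly-A scaling CAB6A (-0.74) passed in the psbA mutant too, making 5. With this scaling 5571 of 10101 probe sets were called lower in the psbA mutant. The poly-A counts of 14 carotenoid probe sets and 5 leaf markers stand beside that share, not beside 5.76%. The calls of PETE and GS2 held with each array left out, and those of CAB4, CAB5 and CAB6A each ended without at least 1 array in 1 of the mutants. The part of leaf composition in the HDS and DXR differences was not tested.

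**Figure D4:**
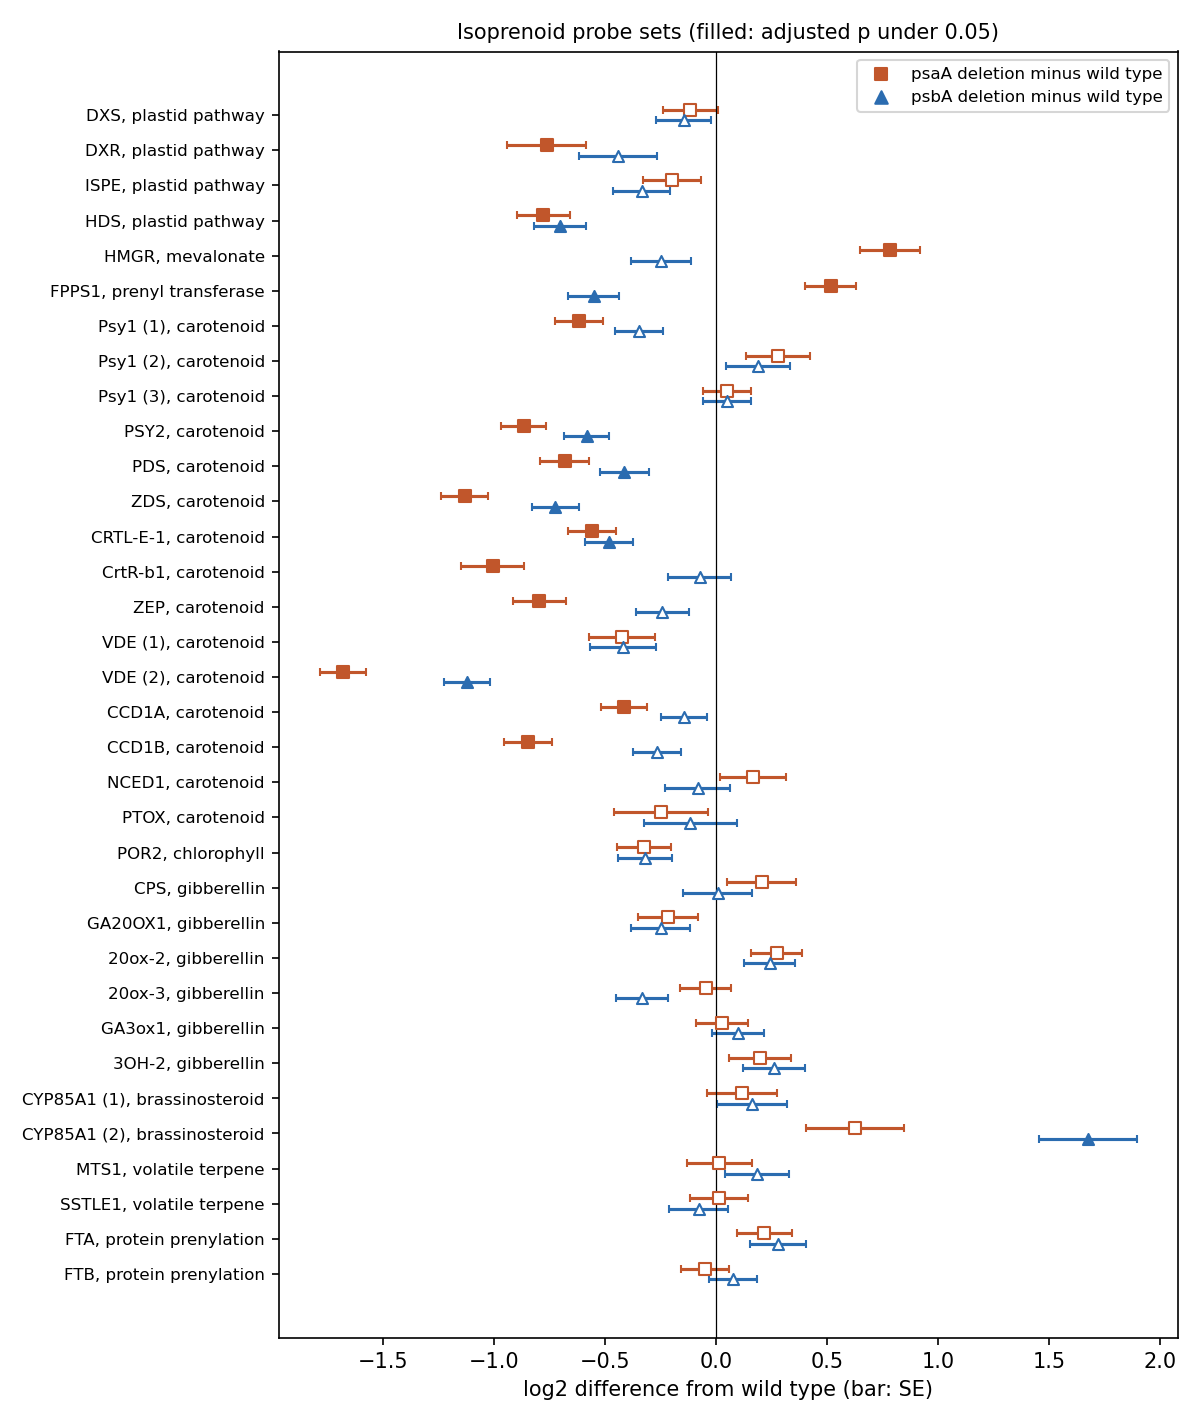
Log2 differences from wild type (horizontal axis, bars are SE) of the 34 probe sets of the isoprenoid lists, psaA mutant as squares and psbA mutant as triangles. Filled symbols have a limma adjusted p under 0.05, and a number in brackets tells probe sets of a gene apart. HMGR and FPPS1 are the filled squares to the right of 0, and the filled squares to the left are DXR, HDS and carotenoid genes.

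Of the 13 probe sets listed under other isoprenoid products, 1 passed against wild type. Of all probe sets 10.7% were called in the psaA mutant and 11.2% in the psbA mutant. With so few probe sets, counts near these shares do not show that these branches were unchanged. Of 6 gibberellin probe sets, which include CPS, the copalyl diphosphate synthase, and the oxidases GA20OX1, 20ox-2, 20ox-3, GA3ox1 and 3OH-2, 0 passed in limma in either mutant. They ranged from -0.22 to 0.27 in the psaA mutant and from -0.33 to 0.26 in the psbA mutant, with 1 of 6 at an unadjusted p under 0.05 in each. With poly-A scaling CPS, GA20OX1 and 20ox-3 passed as lower in the psbA mutant, where this scaling called 5571 of 10101 probe sets lower. FTA and FTB, the subunits of protein farnesyltransferase, gave 0.22 and -0.049 in the psaA mutant and 0.28 and 0.078 in the psbA mutant, with 0 of 2 passing in limma and 0 at an unadjusted p under 0.05.

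The terpene synthase genes MTS1 (0.015 and 0.19) and SSTLE1 (0.013 and -0.079) did not pass in either mutant either, with 0 of 2 at an unadjusted p under 0.05, and SSTLE1 passed as lower in the psbA mutant with poly-A scaling. Of 10 symbols listed for tocopherol, plastoquinone and the chlorophyll side chain, only POR2, a protochlorophyllide reductase, matched, so no other gene on that list was read. POR2 gave -0.32 in both mutants (limma adjusted p of 0.147 and 0.145) and passed with poly-A scaling. CYP85A1, an oxidase of brassinosteroid synthesis from sterols, rose 3.19-fold in the psbA mutant at 1 probe set (1.67, SE 0.22, n = 2 per group, limma adjusted p = 0.0023). In the psaA mutant that probe set gave 0.62 (adjusted p = 0.122), and passed without wild-type replicate 1 or with hybridisation-control scaling. The other CYP85A1 probe set gave 0.12 and 0.16 and did not pass, so the 2 readings of this gene disagree. Of 11 mevalonate-pathway symbols searched 1 matched, HMGR, and of 15 prenyl transferase and isomerase symbols 1 matched, FPPS1.

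Markers of other tissues were read as well. As deposited, 10.7% (psaA minus wild type), 11.2% (psbA minus wild type) and 3.98% (psbA minus psaA) of all probe sets were called. Of 7 root markers 0 passed in the psaA mutant (2 at an unadjusted p under 0.05), and in the psbA mutant Nramp2 (0.47) rose and NRAMP3 (-0.48) fell. Each of these 2 calls ended with at least 5 of the 6 single arrays left out. With poly-A scaling Nramp2 gave 0.052 in the psbA mutant (limma adjusted p = 0.77), 6 of the 7 root markers passed as lower there, and NRAMP3 passed as lower in the psaA mutant (-0.45). Of 10101 probe sets, this scaling called 5571 lower in the psbA mutant and 1424 lower in the psaA mutant. Between the mutants PT1, a phosphate transporter, gave -0.61 (limma adjusted p = 0.0493), a call that ended with any array left out. Of 2 meristem and 2 epidermis or trichome markers 0 passed in limma in any comparison as deposited, with 1 meristem marker (WUS) at an unadjusted p under 0.05 in the psaA mutant and between the mutants. With poly-A scaling WUS passed as lower in the psaA mutant (-0.52) and in the psbA mutant (-0.36), and the epidermis marker LE16 in the psbA mutant (-0.42).

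**Figure D5:**
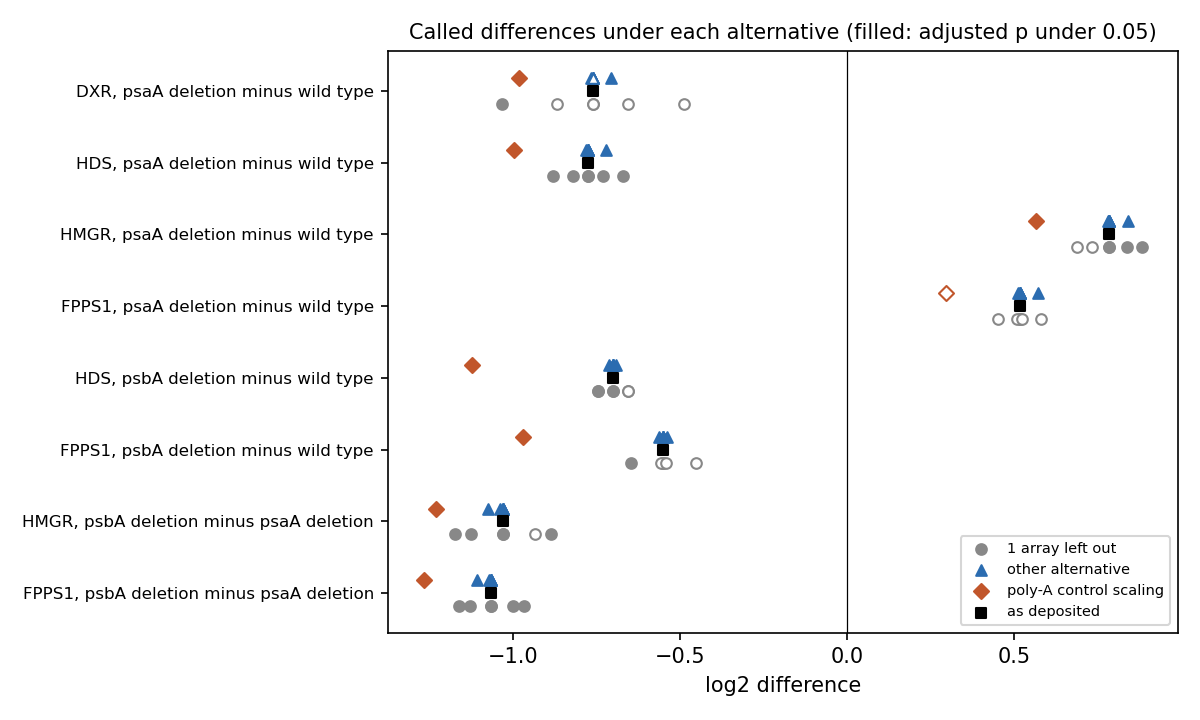
The 8 called differences of the 5 genes (horizontal axis, log2) as deposited and under each alternative; open symbols have an adjusted p of 0.05 or more. Every alternative keeps the sign of each difference, and the open symbols are mostly fits with 1 array left out.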

How the data were processed

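The authors deposited 1 table of log2 values for 10209 probe sets on 6 arrays. The submitters' processing notes name the methods RMA and GCRMA, both of which give log2 values, without versions. Which of them made the table, and its log base, are not given in the sources used here, and base 2 was assumed. The values are centred per probe set (median over arrays within 5e-07 of 0), so no filter on dim probe sets could be run. After 108 Affymetrix control probe sets were left out, limma 3.58.1 in R 4.3.3 (lmFit, eBayes, two-sided, Benjamini-Hochberg over 10101 probe sets) was fitted with 3 residual and 5.39 prior degrees of freedom. The number of arrays limits precision (median SE 0.125). The fit was tested on simulated data.

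Gene symbols came from the platform's annotation. All 5 member probe sets are described. From each list the text names the probe sets that pass, or the one with the smallest p, and for each called member the 3 most correlated named probe sets. Members and lists were chosen with earlier results of these data known. Alternatives were the 2 compared groups alone, robust moderation, poly-A, hybridisation-control and array-median scaling, controls kept, suffixed probe sets left out, a replicate block and each array left out. Plots used matplotlib 3.10.9.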

Additional observations from a re-analysis of the deposited data

Results flagged for a closer look

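Of the 34 probe sets of the isoprenoid lists, 7 passed the direct test between the mutants (psbA deletion minus psaA deletion, limma adjusted p under 0.05). Of all probe sets 3.98% passed it, and the lists were drawn up with earlier results known, so the count is no test. For these 7, the difference from wild type was not the same in both mutants. Among the precursor genes these were HMGR (-1.03) and FPPS1 (-1.07). Among carotenoid genes they were CrtR-b1 (0.93), CCD1B (0.58), VDE at 1 of its 2 probe sets (0.56) and ZEP, the zeaxanthin epoxidase (0.55). CYP85A1 gave 1.05 at 1 of its 2 probe sets and 0.044 at the other. Each of the carotenoid and CYP85A1 calls ended with at least 3 of the 6 arrays left out in turn, and those of ZEP, VDE and CCD1B ended with poly-A scaling too, ZEP also with hybridisation-control scaling, and ZEP and CCD1B with only the mutants in the fit. Outside the isoprenoid lists, Rab1A, loxD, the MPK3 probe set, AOC (-1.08), LEA14 (-0.82) and PT1, all named above, also passed this direct test. All of these but PT1 were picked for their likeness to FPPS1 or HMGR. The LEA14 call ended without psaA replicate 1 or psbA replicate 1. Groups of 2 arrays are too small for a search for outlying arrays.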

How the results depend on the processing

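For the 5 genes in 3 comparisons, 210 values were recomputed under 14 alternatives each: 186 kept their sign and call, 18 lost the call, 3 gained it and 3 turned sign. Robust moderation, controls kept, suffixed probe sets left out, the block and the 2 groups alone leave the difference and its sign unchanged by design. Leaving out an array of the group not compared repeats the fit of the 2 groups alone. The 3 values that turned sign had not passed. For HDS, psbA minus psaA became -0.13 with poly-A scaling. With 1 array left out it ran from -0.031 (without psaA replicate 1) to 0.18. For DXS, psbA minus psaA ran from -0.17 to 0.11 (without psbA replicate 2). Poly-A scaling put the median over all probe sets at -0.20 (psaA minus wild type), -0.40 (psbA minus wild type) and -0.18 (psbA minus psaA), and 1584, 5701 and 752 probe sets were called. The share called higher went from 43.5%, 48.4% and 44.8% to 10.1%, 2.28% and 8.78%. Hybridisation-control scaling moved it to 53.8% for psaA minus wild type and to 32.3% between the mutants. With poly-A scaling all 5 genes were called lower in the psbA mutant, DXS, DXR and HMGR among them, against 2 as deposited. The count of 5 stands beside 5571 of 10101 probe sets called lower there with this scaling. With only the 2 mutants in the fit, 266 probe sets were called between them, against 402. With 1 array left out the count of called probe sets was 494 to 994 (psaA minus wild type, 1083 with all arrays), 509 to 842 (psbA minus wild type, 1128) and 115 to 266 (psbA minus psaA), and the count among the 5 genes was 1 to 3, 0 to 2 and 1 to 2. Such a fit has fewer samples, and the lone array of a group is assumed to vary like the other groups. The HMGR balance against wild type was 1.43 to 1.68 in the psaA mutant and 0.17 to 0.48 in the psbA mutant with 1 array left out. After the values were seen it was also taken with DXS in the plastid mean (1.34 and 0.18) and with FPPS1 in place of HMGR (1.29 and 0.021). A filter on dim probe sets was not run, since centring removed the signal levels. The replicate number as a block gave 916, 965 and 301 called probe sets and changed no call of the 5 genes. It ended those of CCD1A (psaA minus wild type), PDS and Nramp2 (psbA minus wild type), and CYP85A1 and PT1 (psbA minus psaA), and same-numbered arrays did not deviate together (r from -0.0086 to 0.021 over 10101 probe sets). For the other changes the cause was not tested.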

Other observations

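The annotation holds 3 further symbols of carotenoid genes outside the lists used above, picked after the symbols were seen. LCY1, a lycopene cyclase, gave -0.47 (SE 0.165, n = 2 per group) in the psaA mutant and -0.36 in the psbA mutant, with limma adjusted p of 0.121 and 0.229. NSY, a neoxanthin synthase, gave 0.090 and -0.090, and ChrC, a carotenoid-associated protein of chromoplasts, gave -0.21 and -0.057. As deposited, none of the 3 passed in limma in any of the 3 comparisons, with LCY1 in the psaA mutant at an unadjusted p under 0.05. Of all probe sets, 10.7% (psaA minus wild type), 11.2% (psbA minus wild type) and 3.98% (psbA minus psaA) were called. With poly-A scaling LCY1 passed as lower in both mutants (-0.69 and -0.78), and NSY (-0.51) and ChrC (-0.48) in the psbA mutant. Of 10101 probe sets, this scaling called 1424 lower in the psaA mutant and 5571 lower in the psbA mutant.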
